A study of Mus musculus with 6 samples.

Results

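The genes described here encode the machinery that carries proteins from the endoplasmic reticulum (ER) to the Golgi: the COPII and COPI coats, the p24 and cargo receptor proteins, and the tethers and SNAREs that receive the vesicles. They were chosen by name, with earlier results of these data known. The list holds 38 genes out of 53774 named lines in the deposited table, and all 38 had a line of their own. Of these, 37 had a mean of at least 1 FPKM (fragments scaled to exon length and library size) over the 6 libraries and were tested with 10920 genes in all. The remaining one, Arf4, was listed at 0 in all libraries but oil 3, where it was at 0.0109 FPKM.

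The libraries came from macrophages sorted as CD45- and F4/80-positive cells out of mouse skeletal muscle at day 3 after barium chloride injury, which destroys myofibres and starts regeneration. All mice had the genotype Cx3cr1-CreER, Manf fl/fl, so that the recombinase runs from the promoter of the chemokine receptor gene Cx3cr1 and acts when tamoxifen is given. The 3 control libraries came from mice of that genotype given oil and the 3 others from mice given tamoxifen to delete Manf, whose product is a secreted ER protein induced by ER stress. Tamoxifen was given to 1 group only, so its own action and the loss of Manf cannot be told apart. The labels do not give the age of the mice or which library came from which mouse, so the spread behind the p-values is that between these 6 libraries and may be technical.

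Proteins leave the ER in vesicles coated by COPII, which assembles when Preb loads the GTPase Sar1, and pass to the Golgi. COPI, recruited by Arf GTPases, returns escaped ER proteins and recycles the receptors. Phagocytes use this route for the cytokines, enzymes and receptors that they secrete or place on their surface, and the unfolded protein response raises many of its genes when the load on the ER grows.

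The unfolded protein response acts on promoters through transcription factors such as XBP1, ATF6 and members of the CREB3 family. Some of their known sites hold the letters ACGTGG, and the ER stress elements hold the shorter CCACG. Promoters of the transport genes were therefore searched on both strands, in RefSeq sequence of GRCm38.p6 reaching from 250 bases before the transcription start to 50 after it. Sequences were held for 34 of the 38 genes, and 18 of these (52.9%) had ACGTGG, against 13.9% of the 7833 tested genes with a sequence and 9.4% of all 27025. The longer TGACGTGG, which contains ACGTGG, was in the promoters of Arf1, Copb1, Copb2, Sec23a and Sec24d, 14.7% of the 34 genes, against 1.07% of the tested genes. The 2 spaced forms of the ER stress element, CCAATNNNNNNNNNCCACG and ERSE-II (ATTGG and CCACG with 1 base between), were in none of the 34, and in 0.153% and 0.0894% of the tested genes. The promoters held a median of 24 CG dinucleotides, against 21 in the tested genes, and 61% and 60.7% G and C. A match is a description of the letters and does not show binding.

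The windows below run from 100 bases before the start to 20 after it, with ACGTGG or its reverse complement CCACGT in capitals. Uso1, Sec24d, Copb2, Sec13 and Tmed9 carry a match there, and Surf4 and Cope are shown as genes with no match. In all of these genes but Sec24d every tamoxifen library lay above oil, as in 16.2% of all genes tested. They are not all the genes with a match in this stretch. Arf1, Copb1, Copg1, Copz1, Sec31a and Tmed10 also have one and did not overlap, and Sec24c, Sec23a and Mcfd2 have one and overlapped between the groups.
Uso1, chr5:92137838-92137957, plus strand: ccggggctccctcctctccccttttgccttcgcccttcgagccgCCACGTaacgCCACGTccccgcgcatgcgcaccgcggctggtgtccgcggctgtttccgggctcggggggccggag
Sec24d, chr3:123267396-123267515, plus strand: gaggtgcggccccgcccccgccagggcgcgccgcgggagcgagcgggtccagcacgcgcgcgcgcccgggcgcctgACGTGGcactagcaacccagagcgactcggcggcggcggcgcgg
Copb2, chr9:98563631-98563750, plus strand: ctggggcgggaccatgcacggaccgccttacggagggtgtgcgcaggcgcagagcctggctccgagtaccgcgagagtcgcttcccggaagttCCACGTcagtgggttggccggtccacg
Sec13, chr6:113740662-113740781, minus strand: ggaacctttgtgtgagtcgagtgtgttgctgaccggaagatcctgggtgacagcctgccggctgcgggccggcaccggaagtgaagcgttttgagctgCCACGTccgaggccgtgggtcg
Tmed9, chr13:55593035-55593154, plus strand: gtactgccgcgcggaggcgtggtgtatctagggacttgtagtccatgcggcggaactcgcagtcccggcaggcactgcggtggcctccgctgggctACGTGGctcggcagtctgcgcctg
Surf4, chr2:26933492-26933611, minus strand: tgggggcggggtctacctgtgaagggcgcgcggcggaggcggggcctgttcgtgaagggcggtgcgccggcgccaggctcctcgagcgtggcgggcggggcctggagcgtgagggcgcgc
Cope, chr8:70302667-70302786, plus strand: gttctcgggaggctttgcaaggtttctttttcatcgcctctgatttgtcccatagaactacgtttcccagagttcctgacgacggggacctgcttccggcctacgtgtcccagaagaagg

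The median log2 fold change of tamoxifen against oil was 0.13 over the 17 tested members with ACGTGG and 0.11 over the 16 without it. No oil library reached any tamoxifen library in 10 of the 17 and in 6 of the 16, where this held for 16.2% of all genes tested.

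Manf itself did not separate the groups. The oil libraries held 29.5, 33 and 31.4 FPKM, tamoxifen 1 held 18.1 FPKM, and tamoxifen 2 and 3 held 42.5 and 38 FPKM. The log2 fold change was -0.02 with an SE of 0.29 (limma-trend, adjusted p = 0.976). Without tamoxifen 1, Manf rose, with a log2 fold change of 0.35 (limma-trend, adjusted p = 0.0214), in the same setting in which transport genes passed the test. The level of Manf therefore does not bear out the labels of tamoxifen 2 and 3. The sources used here do not name the exon that is deleted, and the level of the whole gene can include exons outside it. Every direction below is therefore that of the libraries labelled tamoxifen. Depth recovered from the values was between 18120336 and 25544650 reads per library. On the first principal component of all tested genes, with 67.7% of the variance, the oil libraries were at -22.5, -13.5 and -13.5, tamoxifen 1 at -6.8, and tamoxifen 2 and 3 at 34.3 and 22.1. Tamoxifen 1 thus stood nearest to oil on this component. On the second, with 10.4% of the variance, tamoxifen 1 stood apart at -17.2, and the other libraries lay between 0.4 and 8.9. The sort gene Adgre1 (F4/80) was between 304 and 384 FPKM in the 6 libraries, and its groups overlapped. Ptprc (CD45) held 54.5, 47.4 and 50 FPKM after oil and 46.9, 35.7 and 34.4 FPKM after tamoxifen, all below oil, and fell without tamoxifen 1 (log2 fold change -0.52, limma-trend adjusted p = 0.00631).

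Most transport genes lay higher in the libraries labelled tamoxifen, by small amounts. The list was chosen with earlier results of these data known, so its shares are a description and no test. Of the 37 tested, 34 had a log2 fold change above 0, a share of 91.9% against 53.7% of all genes tested, and the median was 0.13 against 0.02. In 19 of them (51.4%) the lowest tamoxifen library stood above the highest oil library, where 16.2% of all genes did so, and in 1 (2.7%), Gosr2, they lay below, where 13.8% of all genes did. None of the 37 passed the test across all genes (limma-trend on log2(FPKM + 1), Benjamini-Hochberg adjusted p under 0.05), in which 0% of all genes passed in either direction. Limma-voom on recovered reads also called 0 of the 35 members it tested, and Lman1 and Mcfd2 were not among these. The smallest adjusted p among the members was 0.149. Before adjustment, 10 members were higher and 0 lower at p under 0.05, 27% of the members, where 13.2% of all genes were higher and 11.7% lower.

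**Figure D1:**
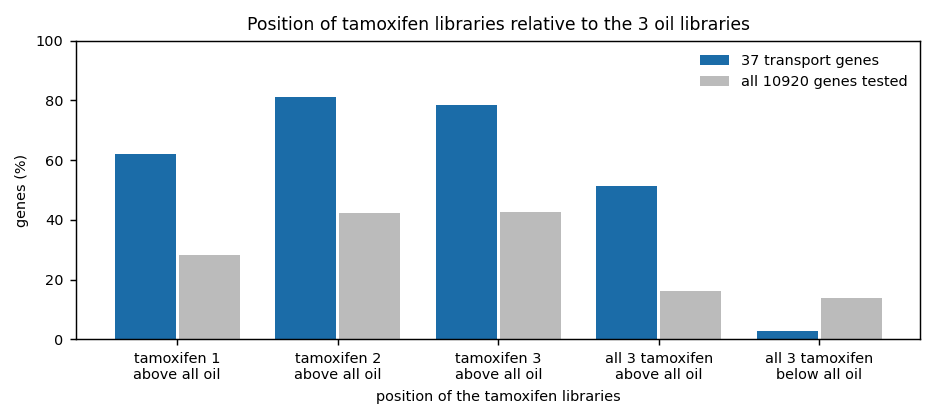
Share of genes (y axis, %) whose tamoxifen libraries lay above or below all 3 oil libraries (x axis), for the 37 transport genes tested (blue) and all 10920 genes tested (grey). Tamoxifen 1 lay above all oil libraries in 62.2% of the transport genes, tamoxifen 2 in 81.1% and tamoxifen 3 in 78.4%, against 28.4%, 42.3% and 42.7% of all genes.

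The libraries labelled tamoxifen did not contribute equally. Relative to its oil mean, the median member stood at 0.07, 0.21 and 0.16 on the log2 scale in tamoxifen 1, 2 and 3, where the median of all genes lay at 0.00, 0.02 and 0.04. Tamoxifen 1 was the lowest of the 3 in 27 of the 37 genes (73%), and in 45.3% of all genes. It still lay above every oil library in 23 of the 37 (62.2%), against 28.4% of all genes, where tamoxifen 2 did so in 30 (81.1%, against 42.3%) and tamoxifen 3 in 29 (78.4%, against 42.7%). Without tamoxifen 1, 14 members rose and 0 fell (limma-trend, adjusted over all genes), 37.8% of the members, where 17.4% of all genes rose and 14.5% fell. The 14 were Sec23b, Sec24d, Sec13, Sec31a, Copb2, Arcn1, Cope, Arf1, Tmed2, Tmed9, Lman1, Surf4, Uso1 and Ykt6. Without any other single library none passed.

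**Figure D2:**
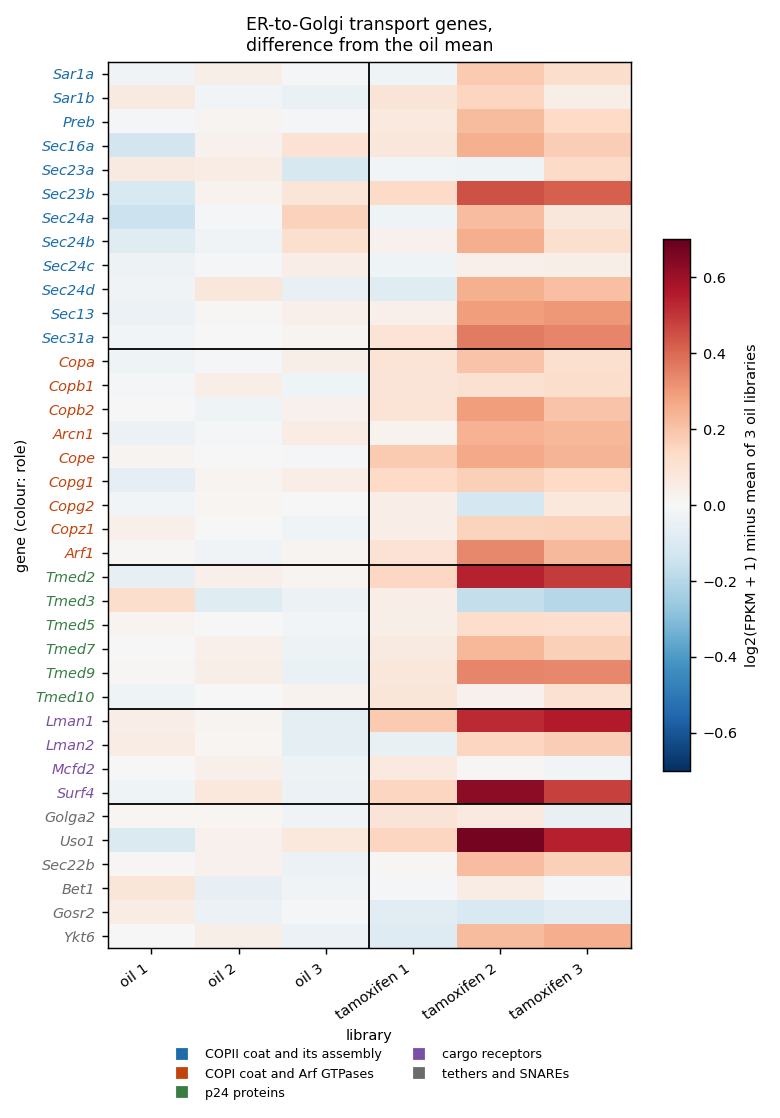
Difference in log2(FPKM + 1) from the mean of the 3 oil libraries (colour) for the 37 tested transport genes (rows, ordered and coloured by role) in each of the 6 libraries (columns). Tamoxifen 2 and 3 are the darkest columns, led by Uso1, Surf4, Lman1 and Tmed2, and tamoxifen 1 is paler.

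The assembly of COPII begins at ER exit sites, where the scaffold Sec16a and the exchange factor Preb act on the GTPases Sar1a and Sar1b. Preb (chr5:30950853-30960361) was at 10.1, 10.3 and 10.1 FPKM after oil and at 10.7, 12 and 11.3 FPKM after tamoxifen, without overlap. Its log2 fold change was 0.14 (SE 0.07, limma-trend adjusted p = 0.244). Sec16a overlapped between the groups, at 10.4 ± 0.929 and 11.8 ± 0.751 FPKM (SD, n = 3). The GTPases stood at nearly equal levels: Sar1a was at 39, 40.9 and 39.3 FPKM after oil and 38.9, 45.3 and 43.3 FPKM after tamoxifen, and Sar1b at 38.7, 36.6 and 35.9 FPKM and 39.5, 41.2 and 38.1 FPKM. Both overlapped between the groups, and both had a log2 fold change of 0.09.

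The inner coat pairs Sec23, which activates the GTPase of Sar1, with Sec24, which binds cargo. Sec23b (chr2:144556229-144590749) was at 9.13, 10.1 and 10.6 FPKM after oil and 11, 13.9 and 13.6 FPKM after tamoxifen. All 3 of these lay above oil, tamoxifen 1 only just, and the log2 fold change was 0.34 (SE 0.11, limma-trend adjusted p = 0.156), the highest of the COPII list. Its paralog Sec23a (chr12:58958383-59012017) was at 8.03, 7.97 and 6.99 FPKM after oil and 7.54, 7.48 and 8.49 FPKM after tamoxifen, fully mixed. Without tamoxifen 1 Sec23b rose (log2 fold change 0.44, limma-trend adjusted p = 0.0104), and Sec23a was at 0.05 (adjusted p = 0.684). The difference between both paralogs within a library, Sec23a minus Sec23b, was -0.33 ± 0.19 after oil and -0.64 ± 0.16 after tamoxifen on the log2(FPKM + 1) scale (SD, n = 3). The groups overlapped, and the change of -0.31 had an exact two-sided permutation p of 0.2, adjusted p = 0.4 over the 6 pairs compared.

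The Sec24 paralogs, which differ in the export signals they bind, kept 1 order in each of the 6 libraries: Sec24c, Sec24b, Sec24d, Sec24a. Sec24c, with the largest p of the COPII list, was at 21.7, 22.1 and 23 FPKM after oil and 21.8, 22.8 and 22.9 FPKM after tamoxifen, all libraries within a narrow range. Sec24b was at 15.5, 16.2 and 17.9 FPKM after oil and 16.9, 19.9 and 17.9 FPKM after tamoxifen. Sec24a was the scarcest, at 3.86, 4.34 and 5.03 FPKM after oil and 4.28, 5.25 and 4.69 FPKM after tamoxifen. Both overlapped between the groups. Sec24d was at 13.7, 14.8 and 13.4 FPKM after oil, at 13.1 FPKM in tamoxifen 1, below all of these, and at 16.8 and 16.3 FPKM in tamoxifen 2 and 3, above them. It was the only Sec24 gene that rose without tamoxifen 1, with a log2 fold change of 0.23 (limma-trend adjusted p = 0.0486). The change of Sec24a against Sec24b was -0.05 and that of Sec24c against Sec24d -0.11 (exact permutation p of 0.4 and 0.3).

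The outer cage of COPII consists of Sec13 and Sec31a, and both lay higher in all 3 libraries labelled tamoxifen. Sec31a (chr5:100361649-100416234) was at 15.9, 16.1 and 16.3 FPKM after oil and 17.3, 21 and 20.7 FPKM after tamoxifen, with a log2 fold change of 0.27 (limma-trend, SE 0.09, adjusted p = 0.157). Sec13, which is also a nuclear pore subunit, was at 23, 23.8 and 24.3 FPKM after oil and 24.3, 29.2 and 29.5 FPKM after tamoxifen. The oil 3 and tamoxifen 1 values of Sec13 differ only beyond these digits. Over the whole COPII list, 12 of 12 genes had a fold change above 0, where 53.7% of all genes did. In 4 of the 12 all tamoxifen libraries stood above oil (16.2% of all genes), and 4 rose without tamoxifen 1 (17.4% of all genes).

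The COPI coat is a complex of subunits that is recruited to Golgi membranes as a unit. Of its 8 measured genes, 6 lay above oil in all 3 libraries labelled tamoxifen, where 16.2% of all genes tested did. Tamoxifen 1 lay above every oil library in 7, where it did so in 28.4% of all genes. The median subunit stood 0.09, 0.18 and 0.15 log2 units above its oil mean in tamoxifen 1, 2 and 3. Cope (chr8:70302518-70312993), the epsilon subunit, was at 25.6, 25.2 and 25.1 FPKM after oil and 28.9, 30.6 and 30 FPKM after tamoxifen. The oil libraries spanned less than 1 FPKM and all 3 others lay well above them, and the log2 fold change was 0.23 (SE 0.06, limma-trend adjusted p = 0.151). Copb2 (chr9:98563721-98588382), the beta-prime subunit that reads dilysine retrieval signals, was at 25.7, 25.2 and 26.3 FPKM after oil and 27.6, 31.8 and 29.7 FPKM after tamoxifen. Copa and Copb1 were at 37.5 ± 1.01 and 27.6 ± 0.797 FPKM after oil and 41.2 ± 1.6 and 29.8 ± 0.374 FPKM after tamoxifen, also without overlap. Copz1, the zeta subunit, was at 30 ± 0.74 and 32.7 ± 1.48 FPKM. Arcn1, the delta subunit, was at 15 ± 0.529 and 17.1 ± 1.51 FPKM and overlapped through tamoxifen 1.

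The gamma subunit is made from either of a pair of genes. Copg1 was at 8.55, 9.11 and 9.34 FPKM after oil and 10, 10.2 and 9.99 FPKM after tamoxifen, without overlap. Copg2 was at 8.91, 9.14 and 9.07 FPKM after oil and 9.38, 8.21 and 9.56 FPKM after tamoxifen, with tamoxifen 2 the lowest of the 6 libraries. Copg1 minus Copg2 was -0.01 ± 0.05 after oil and 0.14 ± 0.12 after tamoxifen on the log2(FPKM + 1) scale, without overlap between the groups. The change of 0.15 had an exact permutation p of 0.1, the smallest the design allows, and an adjusted p of 0.3 over the 6 pairs. Both gamma genes stood lowest of the coat subunits in every library, and Copa stood highest.

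Arf1 (chr11:59211412-59228270), the GTPase that recruits COPI, was the most abundant of the transport genes, at 236, 231 and 238 FPKM after oil and 252, 297 and 275 FPKM after tamoxifen. All 3 lay above oil, and Arf1 rose without tamoxifen 1 (log2 fold change 0.28, limma-trend adjusted p = 0.0187). Arf4, another GTPase of this step, had at most 1 read in a library. Its locus overlaps that of Pde12 on the other strand, which was listed at 0 in all 6 libraries, so the 0 of Arf4 may be a failed estimate and its level is not described here.

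**Figure D3:**
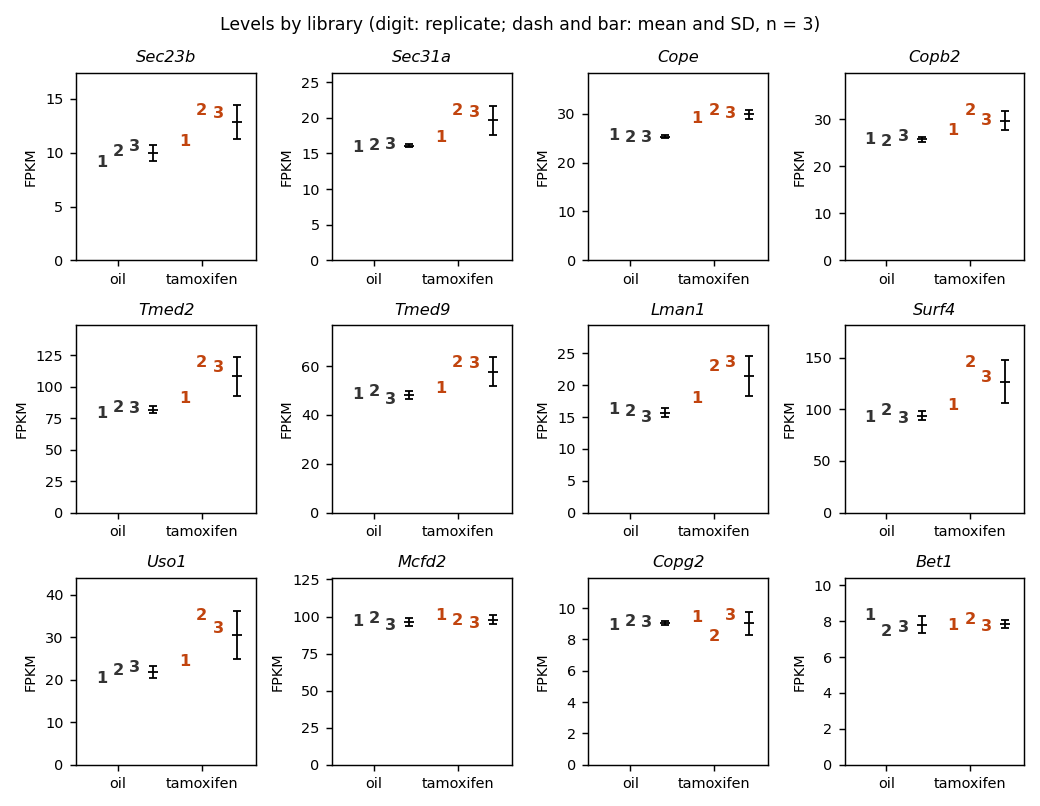
FPKM (y axes, each from 0) in each library of 12 transport genes, with the digit giving the replicate, and the mean and SD of 3 libraries beside it. In the first 9 panels all tamoxifen libraries lie above oil, with tamoxifen 1 lowest of the 3, and in the panels of Mcfd2, Copg2 and Bet1 the groups mix.

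The p24 proteins are transmembrane proteins that cycle between ER and Golgi, form complexes with each other and help to sort cargo such as glycolipid-anchored proteins. Tmed2 (chr5:124540695-124550506) was at 78.5, 83.7 and 82.8 FPKM after oil and 90.5, 119 and 115 FPKM after tamoxifen. It was the most abundant p24 gene in all 6 libraries, and its log2 fold change of 0.39 (limma-trend, SE 0.12, adjusted p = 0.153) was the highest of this list. Tmed9 (chr13:55573732-55597697) was at 48.3, 49.5 and 46.5 FPKM after oil and 50.8, 61.3 and 60.9 FPKM after tamoxifen, also without overlap. Tmed10, which pairs with Tmed2, showed a smaller separation, at 66, 67.6 and 68.7 FPKM after oil and 71.6, 68.9 and 72.8 FPKM after tamoxifen. Tmed5 and Tmed7 also lay above oil in all 3, with log2 fold changes of 0.09 and 0.15. The Tmed7 locus overlaps that of Ticam2 on the same strand, so that reads may be shared between them.

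Tmed3 went the other way. It was at 30.6, 26.4 and 27.2 FPKM after oil and 29, 24.8 and 24.3 FPKM after tamoxifen, with tamoxifen 1 inside the range of oil and the others below it. Its log2 fold change was -0.11 (SE 0.10, limma-trend adjusted p = 0.494), and -0.18 without tamoxifen 1 (adjusted p = 0.125). In oil and in tamoxifen 1 Tmed3 stood above Tmed5, and in tamoxifen 2 and 3 below it.

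Of the cargo receptors, Lman1 and Surf4 lay higher in all 3 libraries labelled tamoxifen, and the groups overlapped for Lman2 and Mcfd2. Lman1 (ERGIC-53) is a lectin that, with its soluble partner Mcfd2, carries glycoproteins such as coagulation factors out of the ER. It was at 16.2, 15.9 and 14.9 FPKM after oil and 17.9, 22.9 and 23.5 FPKM after tamoxifen. All 3 lay above oil, with a log2 fold change of 0.42 (limma-trend, SE 0.11, adjusted p = 0.149), the smallest p of all transport genes. Mcfd2 was at 96.5, 98.8 and 93.8 FPKM after oil and 101, 97 and 95.1 FPKM after tamoxifen, and only tamoxifen 1 lay outside the range of oil. Lman1 minus Mcfd2 was -2.55 ± 0.04 after oil and -2.15 ± 0.25 after tamoxifen on the log2(FPKM + 1) scale. In FPKM, Lman1 was 0.17, 0.16 and 0.16 times Mcfd2 after oil and 0.18, 0.24 and 0.25 times Mcfd2 after tamoxifen. These values did not overlap, and the change of 0.40 had an exact permutation p of 0.1, the smallest possible, and an adjusted p of 0.3.

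**Figure D4:**
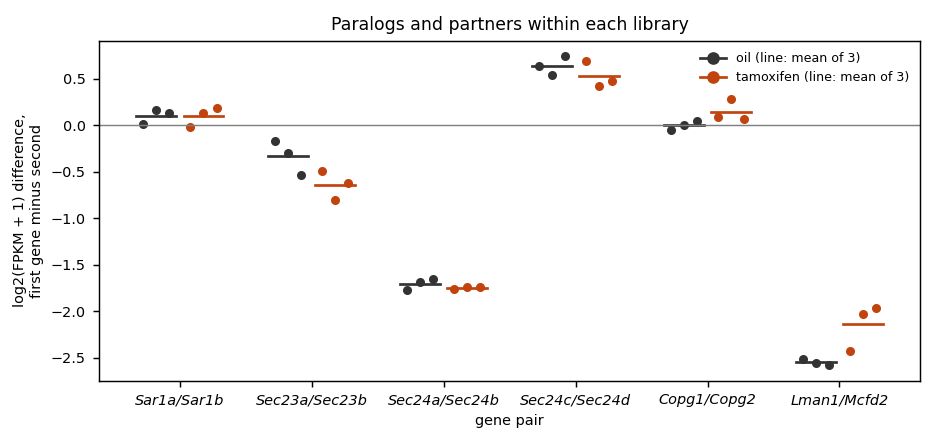
Difference in log2(FPKM + 1) between both genes of a pair (y axis) in each library, for 6 pairs (x axis), oil in grey and tamoxifen in orange, with lines at the means of 3. Lman1/Mcfd2 and Copg1/Copg2 are the pairs whose groups do not overlap, and Sar1a/Sar1b has nearly the same mean, 0.10, in both.

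Surf4 (chr2:26920040-26933928), a receptor for soluble secreted proteins, was at 91.6, 98.8 and 90.9 FPKM after oil and 104, 145 and 131 FPKM after tamoxifen, with a log2 fold change of 0.42 (limma-trend, SE 0.13, adjusted p = 0.154). Tamoxifen 1 lay closest to oil here too. Lman2 (VIP36) was at 31.4, 30.6 and 28.9 FPKM after oil and 29.2, 33.7 and 34.3 FPKM after tamoxifen, and its groups overlapped through tamoxifen 1.

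Among the tethers and SNAREs 1 gene stood out in size. Uso1 (p115, chr5:92137938-92202798), which tethers ER-derived vesicles to the Golgi, was at 20.2, 22.2 and 22.9 FPKM after oil and 24.2, 35.2 and 32.1 FPKM after tamoxifen. All 3 lay above oil, and the log2 fold change of 0.45 (limma-trend, SE 0.14, adjusted p = 0.155) was the highest of the 37 genes. Golga2 (GM130), the Golgi protein that binds Uso1, was at 15.4 ± 0.237 FPKM after oil and 15.8 ± 0.878 FPKM after tamoxifen, with overlap. The SNARE Sec22b was at 12.8, 13 and 12.3 FPKM after oil and 12.8, 14.9 and 14.4 FPKM after tamoxifen, and Bet1 at 8.34, 7.45 and 7.64 FPKM and 7.75, 8.11 and 7.71 FPKM. Bet1 mixed fully, and Sec22b overlapped only through tamoxifen 1. Gosr2, another SNARE of this step, was at 39.3, 36.8 and 37.4 FPKM after oil and 35.8, 35.1 and 35.8 FPKM after tamoxifen, the single transport gene with all 3 below oil. Its log2 fold change was -0.09 (SE 0.06, limma-trend adjusted p = 0.407). Ykt6, a lipid-anchored SNARE, was at 57.4, 59 and 55.7 FPKM after oil, at 53.8 FPKM in tamoxifen 1 and at 67 and 68.5 FPKM in tamoxifen 2 and 3, so that tamoxifen 1 lay below all oil libraries and the others above.

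**Figure D5:**
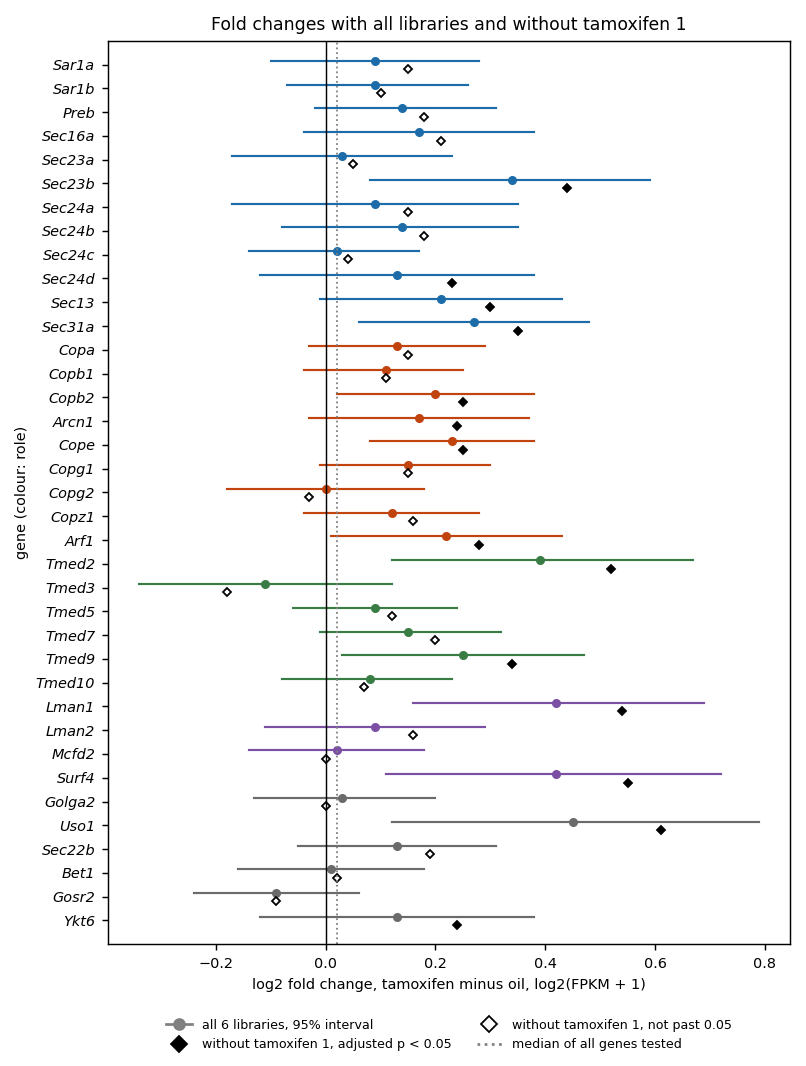
Log2 fold change of tamoxifen against oil (x axis) for the 37 transport genes (y axis, coloured by role) from all 6 libraries, with its 95% interval (circles and bars), and without tamoxifen 1 (diamonds, filled where the adjusted p was under 0.05). Most circles lie right of the median of all genes, 0.02 (dotted line), and the filled diamonds are the 14 genes that rose without tamoxifen 1.

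The other genes of the route, 74 on a list that holds no member but includes 8 transcription factors of secretory genes, were less one-sided. Of 68 tested, 46 had a fold change above 0 and 22 below, where 53.7% of all genes were above 0, and the median was 0.09. None passed the test across all genes. Without tamoxifen 1, 17 of the 68 rose and 5 fell, where 17.4% of all genes rose and 14.5% fell. Rab1a, listed under its older name Rab1, was at 107, 112 and 115 FPKM after oil and 111, 143 and 131 FPKM after tamoxifen. It rose without tamoxifen 1 (limma-trend adjusted p = 0.0216). Of the other COPII factors 7 of 8 lay higher, among them Mia3 (TANGO1), which helps to export large cargo such as collagen, at 16.1, 16.7 and 17.7 FPKM after oil and 18.6, 20.8 and 19.9 FPKM after tamoxifen. Pdcd6, a calcium-binding protein that interacts with Sec31a, was at 21.4, 22.4 and 22.5 FPKM and 22.8, 25.9 and 25.3 FPKM.

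Close relatives of the transport genes did not all go the same way. Copz2, the second zeta subunit gene, was scarce and lay lower, at 3.37, 1.81 and 2.93 FPKM after oil and 1.75, 1.12 and 1.29 FPKM after tamoxifen. Copz1 lay higher in the same libraries. Arf2 was at 24, 24.2 and 25.7 FPKM after oil and 26.9, 33.7 and 30.9 FPKM after tamoxifen, without overlap, while Arf3 was at 46.5, 44.6 and 43.7 FPKM after oil and 43.5, 39.9 and 42.8 FPKM, all below oil. The other p24 proteins and cargo receptors were divided, with 5 of 11 above 0 and a median of -0.05. In that list Kdelr1, a receptor that returns ER proteins with a KDEL tail, was at 49.4, 44.5 and 43.5 FPKM after oil and 42, 35.2 and 38.1 FPKM after tamoxifen, all below oil. Kdelr2, its paralog, was chosen once its level was known and stood at 26.5, 29.4 and 29.5 FPKM after oil and 27, 38.5 and 42.3 FPKM after tamoxifen. Bcap29, an ER membrane protein, was at 5.23, 5.23 and 4.99 FPKM and 6.45, 6.9 and 7.61 FPKM, with a log2 fold change of 0.38 (limma-trend, SE 0.08, adjusted p = 0.147).

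Of the general fusion and tethering factors, Yif1a was at 17.4, 17.5 and 16.7 FPKM after oil and 19.9, 23.6 and 23.3 FPKM after tamoxifen, and Nsf, the ATPase that takes SNARE complexes apart, at 13.4, 14.2 and 13.6 FPKM and 15.7, 16.8 and 17.3 FPKM. Neither overlapped. The TRAPP complex, a tether that also activates Rab GTPases, was near balance, with 8 of 14 genes above 0. Its related subunits Trappc6a and Trappc6b lay in opposite directions: Trappc6a was at 8.31, 7.92 and 8.15 FPKM after oil and 6.91, 5.77 and 6.08 FPKM after tamoxifen, and Trappc6b at 19.4, 18 and 17.3 FPKM and 20.9, 21.7 and 21.2 FPKM. Neither gene overlapped between the groups. Of the transcription factors of secretory genes, Creb3 was at 14.9, 15.2 and 15.4 FPKM after oil and 17.4, 17.9 and 17.7 FPKM after tamoxifen, and Atf6 at 21.9, 23.8 and 23 FPKM and 25.8, 28.4 and 26.5 FPKM, both without overlap. Xbp1, Arf3 and Rab1a were likewise chosen once their levels were known, and Xbp1 stood at 38.4, 44.5 and 45.6 FPKM and 39.8, 51 and 50.7 FPKM, with tamoxifen 1 inside the range of oil.

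The sums of some marker lists of other cells differed between the same libraries, not all in 1 direction. The summed level of 8 neutrophil markers was between 41.5 and 42.8 FPKM after oil and at 42.8, 304 and 90.7 FPKM in tamoxifen 1, 2 and 3, with 3 of the 8, Cxcr2, Ly6g and Camp, under 1 FPKM in every library and Ly6g at 0 in all but tamoxifen 2. The members of this list did not go 1 way. S100a8 and S100a9 made up most of the sum in tamoxifen 2, at 154 and 120 FPKM, while Csf3r held 27.3, 28.7 and 28.2 FPKM after oil and 30.3, 15.2 and 14.6 FPKM after tamoxifen, and fell without tamoxifen 1 (log2 fold change -0.87, limma-trend adjusted p = 0.00245). Mmp9 and Retnlg overlapped between the groups. The summed level of 6 fibroblast and stromal markers was between 22.1 and 24.4 FPKM after oil and at 15, 36.1 and 27.9 FPKM. Of the B and plasma cell markers, whose cells are rich in this machinery, 5 of 6 were under 1 FPKM in every library. The summed level was between 1.5 and 1.83 FPKM after oil and at 1.47, 2.28 and 2.28 FPKM after tamoxifen. The remaining marker, Cd79a, was at 1.33, 1.3 and 1.21 FPKM after oil and 1.37, 2.27 and 2.16 FPKM after tamoxifen. It rose without tamoxifen 1 (log2 fold change 0.50, limma-trend adjusted p = 0.0118). Tnfrsf17, among the 5, lay below oil in all 3. All 6 T and NK cell markers were under 1 FPKM throughout. The summed level of 5 macrophage and sort genes was between 2035 and 2095 FPKM after oil and 2057, 1479 and 1588 FPKM after tamoxifen, and Cd68 made up most of it. Cx3cr1, whose promoter drives the recombinase, was between 42.7 and 51.7 FPKM after oil and stood at 31.3, 9.82 and 24.6 FPKM after tamoxifen. Csf1r was between 386 and 446 FPKM after oil and stood at 320, 250 and 289 FPKM after tamoxifen. Both genes, like Ptprc, lay below oil in all 3 libraries labelled tamoxifen. Cd68 and Adgre1 overlapped between the groups, Cd68 at 1159, 1214 and 1205 FPKM after oil and 1289, 879 and 927 FPKM after tamoxifen. Itgam, also on this list, was found on several lines and left out. The summed level of 6 dendritic cell markers was between 6.51 and 11.5 FPKM after oil and at 3.64, 3.67 and 3.47 FPKM after tamoxifen, and that of 6 muscle markers between 4.62 and 9.33 FPKM and at 3.19, 1.49 and 2.68 FPKM. Both sums were lower in all 3, tamoxifen 1 included, but not every marker was. Ccr7 and Cd209a made up most of the dendritic cell sum, and Acta1 and Myog most of the muscle sum. Xcr1, Zbtb46, Ckm and Myh4 overlapped between the groups. Under 1 FPKM in every library were 4 of the 6 dendritic cell markers and 3 of the 6 muscle markers. The sums of endothelial markers (6.45 to 8.01 FPKM) and erythroid markers (1 to 4.25 FPKM) overlapped between the groups. The part of these cells in the levels of the transport genes was not tested, and in these bulk samples a change in the cells present and a change in RNA per cell cannot be told apart.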

How the data were processed

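RNA of sorted mouse macrophages was measured in 3 oil and 3 tamoxifen libraries, grouped by their titles. The values are FPKM per gene, deposited by the authors as 1 table, and the unit comes from the table's name and its values. Per the submitters' processing notes, reads were placed on GRCm38.p6. Aligner, counter, strand setting and annotation: not given in the sources used here. Levels of genes with overlapping or near-identical genes are therefore uncertain. Of the transport genes, 18 overlap another annotated gene, 7 of them a protein-coding one.

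Lines without a gene name (382) or with a date in its place (27) were left out of 54183, and 124 names found on several lines were left out of the gene lists. FPKM times exon length (GENCODE M21, same build) gave whole reads for between 95.0% and 95.3% of values of up to 1000 reads, within 0.02 reads, and from these the depth, 18120336 to 25544650 reads. That depth puts between 541 and 13490 reads behind each tested transport gene, and intervals cover counting error and the spread of these samples only.

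Tamoxifen was compared with oil by limma-trend (limma 3.58.1, R 4.3.3) on log2(FPKM + 1), for genes averaging 1 FPKM or more, without covariates, two-sided, Benjamini-Hochberg adjusted over all genes, with a threshold of 0.05. On this scale the fold changes of low genes come out too small. Pairs of genes were compared by an exact permutation test. Named with every library are the 2 genes of each role with the smallest p and the 1 with the largest, both genes of each pair, and 2 of each other list. Others named were picked for their values or role. Members and lists were chosen with earlier results of these data known. The fit was checked on data simulated with the spread of the oil libraries. For genes such as Surf4 that spread was smaller than after tamoxifen (SD 4.38 and 20.8 FPKM), which the check does not cover. Alternatives were another pseudocount, 2 filters, 3 scalings, no trend, a replicate block, limma-voom on the recovered reads, and each library left out. Coordinates are 1-based, from GENCODE M21, and promoters are from RefSeq. Python 3.11 was used for the other steps.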

Additional observations from a re-analysis of the deposited data

How the results depend on the processing

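No transport gene passed the test with all 6 libraries under any setting run, and the call rests on tamoxifen 1: with single libraries left out, from 0 to 14 members rose and 0 fell, and the 14 came only without tamoxifen 1. The other genes of the route gave between 0 and 17 higher and between 0 and 5 lower, and all genes between 0 and 1901 higher and between 0 and 1583 lower. All genes gave 0 higher and 1 lower without a filter, and 1 higher and 4 lower with a filter at 5 FPKM. With the replicate block they gave 11 higher and 22 lower, and 0 members. The labels do not say whether same-numbered libraries are pairs. Deviations of same-numbered libraries from their group means had correlations of 0.261, 0.088 and 0.004. Oil 1, oil 2 and tamoxifen 1 correlated best with their own number, and oil 3, tamoxifen 2 and tamoxifen 3 did not. With 3 libraries per group these values cannot settle the pairing. The median log2 fold change of the members was between 0.09, with quantile normalization, and 0.18, without tamoxifen 1, and 0.11 by limma-voom, which tested 35 of them. Between 30 and 34 members had a fold change above 0.

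Directions changed for Manf, which ran from -0.24 to 0.35 when 1 library was left out and was 0.02 without oil 2, and for genes near 0. Sec24c was at -0.01 with median-of-ratios scaling and limma-voom and -0.03 with quantile normalization, Mcfd2 at 0.00 and -0.06 with these 2 scalings, and Golga2 at -0.01 with quantile normalization. Bet1 was at 0.00 with the same FPKM sum and with quantile normalization, and at -0.01 with median-of-ratios scaling and limma-voom. Leaving out 1 library gave Sec23a between -0.03 and 0.06, Sec24c between 0.00 and 0.04, Copg2 between -0.04 and 0.06, Mcfd2 between 0.00 and 0.04 and Bet1 between -0.02 and 0.05. The difference between Sar1a and Sar1b changed by between -0.05 and 0.06. The block holds 1 library of each group per replicate number and so cannot alter the change of a pair. The values of Lman1/Mcfd2 (0.40), Copg1/Copg2 (0.15) and Sec23a/Sec23b (-0.31) were therefore fixed under it and say nothing about stability. The cause was not tested. With 3 libraries per group, no single transport gene differed beyond the spread between libraries after adjustment over all genes.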
